A study of Mus musculus with 16 samples.

Results

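Ctse, Muc5ac, Dmbt1, Cdh17, Lgals4 and Cdx2 are genes of the gastric and intestinal lineages, and their RNA was followed here in LKR10 cells, a line from a mouse lung adenocarcinoma. They are 6 of the 12321 genes with a level in the table, and all 6 passed the limit on low values among the 12320 genes tested. The genes were chosen by name with earlier results of these libraries known. Fold changes between hairpin labels were known at that choice and, for some genes, so were those between growth types. An earlier naming rule, rerun here, ranked Ctse 1 and Muc5ac 4 by fold change for shAnkrd35 in 3D, and Cdh17 7 in 2D. In 3D against 2D it ranked Dmbt1 3 and Muc5ac 8 with shGFP, and Muc5ac 2 and Dmbt1 4 with shAnkrd35. Ranks ran from the largest rise to the largest fall. Cdx2 ranked 257 for shAnkrd35 in 2D and 578 for 3D against 2D with shGFP. It stood among falling genes for shAnkrd35 in 3D, at 2742, and for 3D against 2D with shAnkrd35, at 4850. Which values led to the choice of Dmbt1 is not recorded, so all its contrasts are treated as used. Their hairpin effects and the differences between those effects are therefore given as a description, with a standard error (SE) and no p-value, and so are their growth effects. All libraries came from this 1 line, infected with a lentivirus that carried a short hairpin RNA (shRNA), selected with puromycin at 4 µg/ml for 48 h and harvested after 96 h of further growth. The 4 groups of 4 libraries were 3D shAnkrd35, with a hairpin against the ankyrin repeat gene Ankrd35 and growth in 0.5% methylcellulose, whose viscosity stops cells from settling on the dish; 3D shGFP, with a control hairpin against GFP in the same medium; 2D shAnkrd35, attached as a monolayer; and 2D shGFP, the control monolayer. The labels name no second hairpin against Ankrd35 and do not state whether replicates were grown separately, so a p-value here reflects how much libraries of 1 group varied, and that variation may be technical.

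The stomach, the intestine and the lung all arise from endoderm, and each keeps its identity through a set of transcription factors. Cdx2, a homeodomain factor, specifies intestine and switches on intestinal genes, among them Cdh17. Ctse encodes cathepsin E, an aspartic protease of gastric surface cells, and Muc5ac encodes the gel-forming mucin of the gastric surface and the airways. Dmbt1 encodes a secreted scavenger receptor cysteine-rich glycoprotein of mucosal surfaces. Cdh17 encodes liver-intestine cadherin, an adhesion protein of intestinal epithelium, and Lgals4 encodes galectin-4, a lectin of gut epithelium that helps deliver proteins to the apical membrane. Loss of lung identity with a gain of gastric or intestinal genes is known from mouse lung adenocarcinoma that lacks the lung factor Nkx2-1.

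Libraries held 13.82 M to 28.72 M reads in genes. Ankrd35 itself had 12, 11, 9 and 9 reads in 3D shAnkrd35 against 14, 17, 16 and 16 reads in 3D shGFP, and 2, 6, 7 and 1 reads in 2D shAnkrd35 against 2, 3, 6 and 7 reads in 2D shGFP. In CPM, reads scaled to a common library total, its ranges overlapped in both growth types, so its RNA does not show which libraries carried the hairpin against it, and "labelled shAnkrd35" is meant wherever shAnkrd35 is written. Replicate 1 of 2D shAnkrd35 stood apart with 2109 CPM of the ribosomal RNA-like transcript Gm23935, while replicates 2 to 4 had 239 to 313 CPM. Of 10 listed epithelial markers 6 had a level, while Cldn4, Cldn7, Esrp1 and Grhl2 had none. Krt8, Krt18 and Cdh1 were abundant in every library. Epcam averaged only 1.24 CPM in 3D shAnkrd35, 2.58 CPM in 3D shGFP, 0.406 CPM in 2D shAnkrd35 and 0.516 CPM in 2D shGFP. Of the 10 listed lymphocyte markers, 7 Paneth cell markers and 7 chief and parietal cell markers none had a level in the table. The lung genes Nkx2-1, Sftpc and Sftpb, the gastric genes Tff1, Tff2, Gkn1, Muc6 and Pgc and the intestinal genes Cdx1, Muc2 and Fabp1 had no level in the table either and were not analysed here. In such bulk samples, fewer cells of a type and less RNA per cell cannot be told apart.

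Ctse (chromosome 1, 131638306 to 131675505, plus strand, mm10) was highest in 3D shAnkrd35, where its 4 libraries had 15.04, 12.5, 13.1 and 13.3 CPM. In 3D shGFP they had 2.44, 2.96, 1.93 and 3.23 CPM, in 2D shAnkrd35 4.93, 4.61, 4.06 and 4.41 CPM, and in 2D shGFP 0.805, 0.838, 0.904 and 1.01 CPM. No 2 groups overlapped, and monolayers labelled shAnkrd35 stood above methylcellulose cultures with the control hairpin. Ctse was the only one of the 6 genes with that order. The ratio of group means was 5.11 for shAnkrd35 to shGFP in 3D and 5.06 in 2D. On the log2 scale the hairpin effect was 2.34 ± 0.14 in 3D and 2.23 ± 0.14 in 2D (SE), and the difference between them, 3D minus 2D, was 0.11 ± 0.20. Growth in methylcellulose went with a ratio of 3.00 with shAnkrd35 and 2.97 with shGFP.

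Muc5ac (chromosome 7, 141788972 to 141819231, plus strand) had 75.8, 63.8, 73.1 and 70.5 CPM in 3D shAnkrd35 and 15.4, 14.4, 16.2 and 14.3 CPM in 3D shGFP. In monolayers it was near the limit of the table, with 1.52, 1.57, 1.71 and 1.49 CPM in 2D shAnkrd35 and 0.765, 0.733, 0.523 and 1.22 CPM in 2D shGFP, the last from 11 to 24 reads a library. The groups were fully apart here too. The mucin was 4.70-fold higher by group means with shAnkrd35 in 3D and 1.94-fold higher in 2D. Its log2 hairpin effect was 2.23 ± 0.16 in 3D and 0.94 ± 0.16 in 2D (SE), a difference of 1.29 ± 0.22. Growth type moved it far more than Ctse, by 5.42 ± 0.16 on the log2 scale with shAnkrd35 and by 4.13 ± 0.16 with shGFP.

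Muc5b, the other gel-forming mucin of the same locus and a product of airway and salivary glands, lies within 100 kb of Muc5ac and was compared with it as a neighbour. It averaged 327 ± 26.1 CPM in 3D shAnkrd35, 138.5 ± 12.3 CPM in 3D shGFP, 73.4 ± 8.10 CPM in 2D shAnkrd35 and 53.9 ± 5.37 CPM in 2D shGFP (SD, n = 4). Muc5b, which is not one of the 6 genes, rose with the label shAnkrd35 by 1.24 ± 0.09 in 3D (limma adjusted p = 2.62e-08) and by 0.44 ± 0.09 in 2D (adjusted p = 0.000508). As a neighbour it was picked after the data had been seen, so these p-values are a description and not an independent test. The balance of the mucins moved as well. For every 100 Muc5b reads, 3D shAnkrd35 had 21.7 ± 0.737 Muc5ac reads and 3D shGFP had 10.9 ± 0.532, while 2D shAnkrd35 had 2.16 ± 0.224 and 2D shGFP had 1.52 ± 0.548 (SD, n = 4). That ratio overlapped between the hairpin labels in 2D and did not overlap in 3D.

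Dmbt1 (chromosome 7, 131032053 to 131121630, plus strand) was set apart mainly by growth type. Its libraries had 13.9, 11.8, 13.3 and 13.3 CPM in 3D shAnkrd35 and 10.2, 10.1, 9.72 and 10.4 CPM in 3D shGFP. In 2D shAnkrd35 they had 0.552, 0.3804, 1.06 and 0.941 CPM, and in 2D shGFP 0.403, 0.209, 0.238 and 0.101 CPM, from as few as 2 reads. The 3D groups did not overlap, and the 2D groups did. The hairpin effect was 0.37 ± 0.27 in 3D and 1.32 ± 0.27 in 2D on the log2 scale (SE). This SE rests on a variance shared by all 4 groups. Library SDs of the log2 level were 0.603 and 0.562 for the monolayer groups, shAnkrd35 first. The matching methylcellulose groups had only 0.102 and 0.038. The low-count monolayers thus account for most of the SE, which overstates the scatter among 3D libraries. By pooled reads, 3D libraries gave a ratio of shAnkrd35 to shGFP of 1.29, with a 95% interval of 1.18 to 1.40, and 2D libraries gave 2.95, with an interval of 1.78 to 5.10; these allow for counting error alone. Growth in methylcellulose went with a log2 difference of 4.09 ± 0.27 with shAnkrd35 and 5.04 ± 0.27 with shGFP. The gene reached 1 CPM, with the prior count included, in 8 of the 3D libraries and 2 of the 2D libraries, so it passed the table's limit through the group where it was high and had to differ by growth type. Fgfr2, a growth factor receptor gene on the opposite strand that spans Dmbt1 without sharing exons, had hairpin effects of -0.02 ± 0.07 in 3D and 0.88 ± 0.07 in 2D. Whether counting used strand is not given in the sources used here, so intronic reads of one gene cannot be told from the other.

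Cdh17 (chromosome 4, 11758147 to 11817895, plus strand) had 25.96, 25.1, 24.4 and 32.9 CPM in 3D shAnkrd35 and 10.5, 13.79, 15.7 and 14.8 CPM in 3D shGFP. Monolayers had 8.93, 7.61, 9.91 and 8.07 CPM in 2D shAnkrd35 and 2.13, 2.36, 3.43 and 2.64 CPM in 2D shGFP. All 4 groups stood apart, in the same order as for Muc5ac. For this cadherin the hairpin effect was the larger in the monolayer, with a log2 value of 0.98 ± 0.15 in 3D and 1.69 ± 0.15 in 2D (SE) and a difference of -0.71 ± 0.21. The growth effect was 1.64 ± 0.15 with shAnkrd35 and 2.34 ± 0.15 with shGFP.

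Lgals4 (chromosome 7, 28833854 to 28841708, plus strand) had 56.3, 44.7, 56.5 and 52.1 CPM in 3D shAnkrd35 and 18.4, 20.7, 20.1 and 21.0 CPM in 3D shGFP. In 2D shAnkrd35 it had 5.25, 7.46, 6.96 and 7.53 CPM, and in 2D shGFP 2.62, 2.67, 2.62 and 3.19 CPM. The 4 groups again did not overlap. Its hairpin effect was 1.38 ± 0.11 in 3D and 1.26 ± 0.11 in 2D on the log2 scale (SE), with a difference of 0.12 ± 0.16, or 0.31 with a trend on length and GC content removed. The growth effect was 2.94 ± 0.11 with shAnkrd35 and 2.82 ± 0.11 with shGFP. Galectins share sequence, so reads of close copies could be split between genes by the authors' counting, and the level of Lgals4 is uncertain to that extent.

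Cdx2 (chromosome 5, 147300805 to 147307270, minus strand) did not follow the other 5 genes. In 3D it was lower with shAnkrd35, with 16.6, 16.4, 19.0 and 14.4 CPM against 27.1, 28.6, 27.4 and 27.1 CPM in 3D shGFP. In 2D it was higher with shAnkrd35, with 22.1, 26.6, 23.0 and 22.2 CPM against 14.9, 15.6, 14.5 and 12.5 CPM in 2D shGFP. Every shAnkrd35 library lay on the same side of every shGFP library within a growth type, and the sides were opposite. The log2 hairpin effect was -0.74 ± 0.09 in 3D and 0.71 ± 0.09 in 2D (SE), a difference of -1.44 ± 0.12. From the highest group mean to the lowest, the order was 3D shGFP, 2D shAnkrd35, 3D shAnkrd35 and 2D shGFP. The ranges of the last pair overlapped. Monolayer libraries also differed in the slope of their levels on gene GC content, which was 0.256 to 0.524 in 2D shAnkrd35 and -0.101 to 0.284 in 2D shGFP (log2 per 10 percentage points). With a trend on length and GC removed, the effect in 2D was 0.54 and the difference was -1.26.

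**Figure D1:**
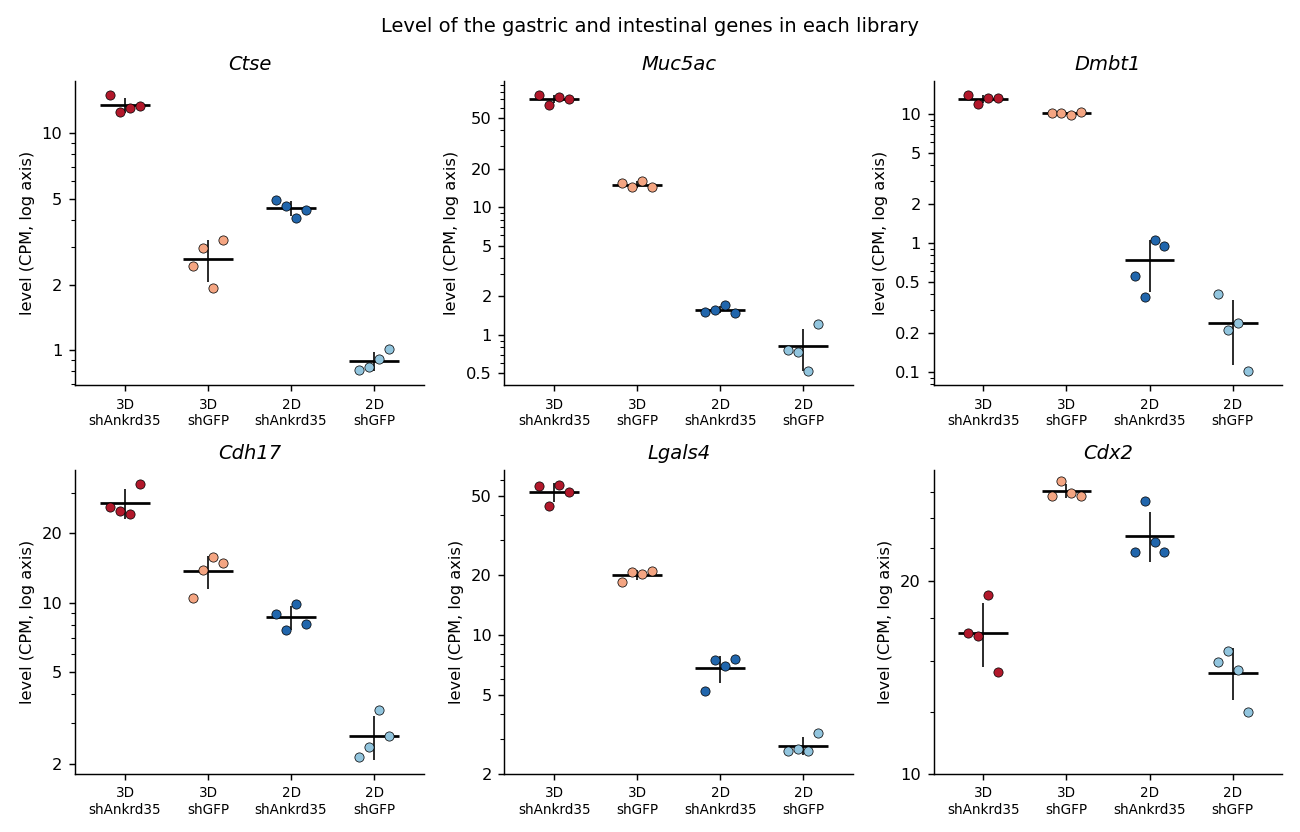
Level of each of the 6 genes in every library, in CPM on a log axis that is scaled to each gene, for 3D shAnkrd35, 3D shGFP, 2D shAnkrd35 and 2D shGFP (4 libraries each). Points are libraries, horizontal lines are group means and vertical lines are SD; 5 genes fall from the left group to the right one apart from the swap of the middle groups in Ctse, while Cdx2 is highest in 3D shGFP at 27.6 CPM and has 16.6 CPM in 3D shAnkrd35.

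Set side by side, the 6 genes were all higher in 2D with the label shAnkrd35, and 6 of 6 had an adjusted p under 0.05 in that direction, where 29.0% of the 12320 genes tested were called higher and 28.8% lower. In 3D, 4 were higher and 1, Cdx2, was lower by the same call, against 15.0% of genes called higher and 14.6% lower. Dmbt1 had no call in 3D. Its SE there came mostly from scatter among 2D libraries, so the missing call does not show that it was unchanged. Both contrasts were used in choosing the genes, so nothing is read from these counts. The shAnkrd35 and shGFP ranges did not overlap upward for 5 of 6 genes in 2D, as for 22.3% of all genes, nor for 5 of 6 in 3D, as for 18.8%, and for Cdx2 they did not overlap downward in 3D, as for 19.4%. The difference between the hairpin effects, 3D minus 2D, was widest for Cdx2 at -1.44 ± 0.12 and Muc5ac at 1.29 ± 0.22, and Dmbt1 had -0.95 ± 0.38.

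With shGFP, 6 of 6 genes were called higher in 3D than in 2D, where 35.2% of all genes were called higher and 32.1% lower, and for all 6 the 3D and 2D ranges did not overlap, as for 33.3% of genes. With shAnkrd35, 5 were called higher and Cdx2 lower, against 34.4% and 36.0% of all genes. Growth effects are treated as used in choosing Muc5ac and Dmbt1, and Dmbt1 had to differ by growth type. Both growth comparisons also use the libraries on which the other genes were chosen, so nothing is read from these counts either. Ctse had a growth effect, 3D minus 2D, of 1.57 ± 0.14 on the log2 scale with shAnkrd35 and of 1.46 ± 0.14 with shGFP (SE). Cdx2 had -0.50 ± 0.09 with shAnkrd35 and 0.94 ± 0.09 with shGFP. For both genes the 3D and 2D ranges did not overlap with either hairpin label.

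**Figure D2:**
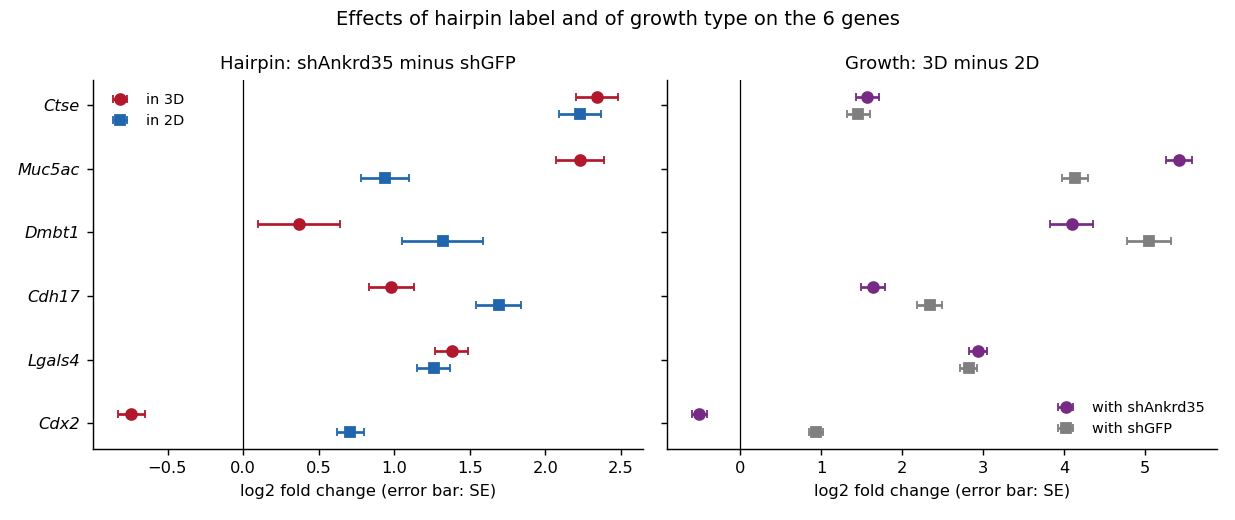
Log2 fold changes of the 6 genes between hairpin labels (left, shAnkrd35 minus shGFP, in 3D and in 2D) and between growth types (right, 3D minus 2D, with shAnkrd35 and with shGFP), with SE from the fit over all 16 libraries. Muc5ac and Dmbt1 have the widest growth effects, up to 5.42 and 5.04, and Cdx2 is the 1 gene with effects on both sides of 0.

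The make-up of the group changed with both variables. Levels of different genes were compared as RPKM, which is CPM divided by the exonic length in kilobases. The summed level of the 6 genes was 48.7 ± 3.52 RPKM in 3D shAnkrd35, 27.6 ± 1.12 RPKM in 3D shGFP, 16.9 ± 1.06 RPKM in 2D shAnkrd35 and 8.53 ± 0.425 RPKM in 2D shGFP (SD, n = 4). Cdx2 made up 15.1% ± 1.73 of that sum for 3D shAnkrd35 and 44.2% ± 1.57 for 3D shGFP, and 61.3% ± 2.16 for 2D shAnkrd35 and 74.4% ± 3.52 for 2D shGFP. Lgals4 took the largest share in 3D shAnkrd35, 46.4% ± 1.66, against 31.4% ± 0.634 for 3D shGFP, with 17.3% ± 2.22 for 2D shAnkrd35 and 14.1% ± 2.18 for 2D shGFP. The gastric protease Ctse had 8.75% ± 0.514 for 3D shAnkrd35 and 3.02% ± 0.612 for 3D shGFP, and 8.42% ± 0.995 for 2D shAnkrd35 and 3.31% ± 0.506 for 2D shGFP. Its share followed the hairpin label, and the growth types differed in it by less than the spread between libraries.

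**Figure D3:**
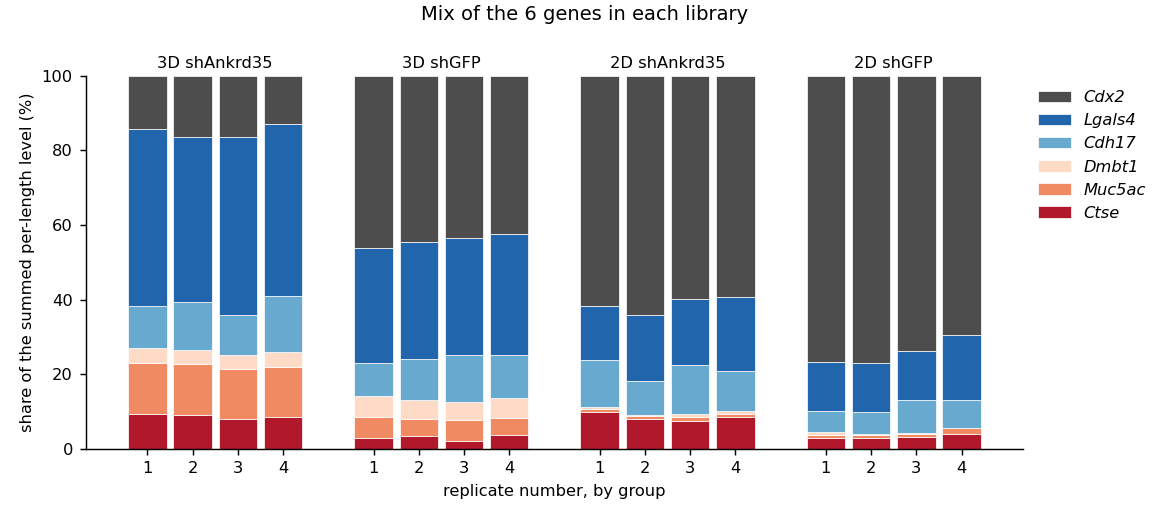
Share of each gene in the summed per-length level (RPKM) of the 6 genes, in percent, as stacked bars for each of the 4 libraries of 3D shAnkrd35, 3D shGFP, 2D shAnkrd35 and 2D shGFP. The dark Cdx2 segment averages 15.1% for 3D shAnkrd35 and 74.4% for 2D shGFP, and the Muc5ac segment averages 13.5% and 0.895% for the same groups.

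Cdx2 and Lgals4 are the 2 of the 6 genes with an entry in the RefSeq promoter table (build GRCm38.p6), and their windows, from 250 bases before to 50 bases after the annotated start, are shown because their RNA moved apart in 3D. Ctse, Muc5ac, Cdh17 and Dmbt1 were not in that table. Letters of 6 motifs were searched on both strands. They were TTTATNG for the CDX motif, AGATAA for the motif of GATA factors, TGTTTAC for the FOXA motif, CAAAGTCCA for the HNF4 motif, GGGCGGGG for the KLF or SP motif and TATAAA for the TATA box. The 1 match, in capitals, is GTAAACA in the Cdx2 window, at bases 211 to 217, which reads as the FOXA letters on the other strand. The windows are chr5:147307200-147307499 on the minus strand for Cdx2 and chr7:28833544-28833843 on the plus strand for Lgals4. The Lgals4 window ends before base 28833854, where the coordinates given above start the gene, so its start differs between the annotations.
Cdx2: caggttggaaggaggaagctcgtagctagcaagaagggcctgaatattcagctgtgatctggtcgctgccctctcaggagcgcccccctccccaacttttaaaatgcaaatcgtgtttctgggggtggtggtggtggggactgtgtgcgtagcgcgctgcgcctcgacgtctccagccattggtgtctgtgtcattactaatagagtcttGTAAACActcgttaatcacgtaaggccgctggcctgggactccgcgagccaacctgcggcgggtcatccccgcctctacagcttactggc
Lgals4: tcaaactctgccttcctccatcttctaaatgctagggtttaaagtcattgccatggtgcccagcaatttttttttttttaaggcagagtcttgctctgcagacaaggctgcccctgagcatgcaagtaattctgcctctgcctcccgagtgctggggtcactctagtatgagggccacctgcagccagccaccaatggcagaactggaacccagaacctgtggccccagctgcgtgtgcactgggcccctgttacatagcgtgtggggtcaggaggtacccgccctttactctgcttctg
Of 32851 promoter windows in the table, 3.65% held the FOXA letters, 10.9% the CDX, 11.2% the GATA, 0.475% the HNF4, 17.6% the KLF or SP and 13.6% the TATA letters. A match is a description of letters in the window, and the absence of one says only that these letters were not there.

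Other gastric and intestinal genes were read from a list of 77 symbols besides the 6, of which 18 had a level in the table. This list and the gene lists below were chosen with earlier results of these libraries known. Their counts and p-values are therefore a description and not an independent test. In 3D with shAnkrd35, 9 of the 18 rose and none fell, where 15.0% of all genes were called higher and 14.6% lower, and the median log2 fold change was 0.62 beside 0.0 over all genes. Mogat2, an enzyme of intestinal fat absorption, rose by 1.87 ± 0.21 (SE, limma adjusted p = 4.46e-06), the brush border protein villin, Vil1, by 1.51 ± 0.22, the microvillus motor Myo7b by 1.13 ± 0.22, the gastric junction protein Vsig1 by 0.91 ± 0.21 and the stomach and lung claudin Cldn18 by 0.56 ± 0.07. When the fit was limited to 3D libraries, 14 of the 18 rose, where 2477 of 12320 genes were called higher and 2611 lower. With a mean of at least 5 CPM required, 2 of the listed genes rose, where 1580 of 10281 genes did. How many of the 18 passed that limit is not given here, so the 2 cannot be read as a share of 18.

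In 2D with shAnkrd35, 9 of the 18 rose and 2 fell, against 29.0% and 28.8% of all genes, with a median of 0.60 beside 0.01 over all genes. Vsig1 rose by 1.82 ± 0.21, Vil1 by 1.40 ± 0.22, Myo7b by 1.22 ± 0.22, Mogat2 by 1.14 ± 0.21, Cldn18 by 0.74 ± 0.07 and the tetraspanin Tspan8 by 0.61 ± 0.10 (SE). The 2 that fell were transcription factors, Onecut2 (-0.81 ± 0.17) and the foregut factor Sox2 (-0.57 ± 0.21). The call for Sox2 (adjusted p = 0.0303) was lost without replicate 2 of 2D shGFP, without replicate 3 or 4 of 2D shAnkrd35, and with only the 2D libraries in the fit. The call for Onecut2 was lost once a length and GC trend was removed.

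Group levels show 2 patterns within the list. Vil1 averaged 3.90 ± 0.500 CPM in 3D shAnkrd35 and 1.31 ± 0.181 CPM in 3D shGFP, and 1.42 ± 0.307 CPM in 2D shAnkrd35 and 0.501 ± 0.211 CPM in 2D shGFP (SD, n = 4), which by group means is the order of Ctse, although the middle groups overlapped. Tspan8 followed growth, with 303.5 ± 4.53 CPM in 3D shAnkrd35, 283.5 ± 12.5 CPM in 3D shGFP, 99.03 ± 9.65 CPM in 2D shAnkrd35 and 65.3 ± 11.6 CPM in 2D shGFP. Of the 18 genes, 11 rose and 1 fell in 3D against 2D with shAnkrd35 (median 1.04), where 34.4% and 36.0% of all genes did, and 11 rose and 4 fell with shGFP (median 0.96), where 35.2% and 32.1% did. The table was limited to genes at 1 CPM in 8 or more libraries. In this and the later lists, a gene low in all 2D libraries could thus be present only through 3D. Likewise a gene low with either hairpin label could be present only through the other, which bears on all counts by hairpin label. Apob, counted as risen with both labels, averaged 0.687 CPM in 2D shAnkrd35 and 0.390 CPM in 2D shGFP. Vsig1 rose most in both, by 2.87 ± 0.21 with shAnkrd35 and by 3.79 ± 0.21 with shGFP, the latter from 3 to 12 reads a library in 2D shGFP. Mogat2 (-1.08), Psca (-0.65) and Sox2 (-0.60) were among the 4 that fell with shGFP, and Psca (-0.38) the 1 that fell with shAnkrd35. The call for Sox2 was lost without replicate 2 of 2D shGFP (adjusted p = 0.0732) and without replicate 3 of 3D shGFP (0.0599), and the call for Psca with shAnkrd35 after removal of the length and GC trend. The difference between the hairpin effects, 3D minus 2D, was above 0 by the test for Sox2 (1.28) and Onecut2 (1.07), among others, and below 0 for Gpa33 (-0.96), Vsig1 (-0.92) and Tspan8 (-0.51). That was 3 of the 18 in each direction, against 17.1% of all genes above 0 and 18.6% below. The call for Vsig1 (adjusted p = 0.0278) was lost without replicate 3 (-0.87, adjusted p = 0.0529) or 4 (-0.88, 0.0513) of 3D shGFP, without replicate 3 of 2D shAnkrd35 (-0.87, 0.0559) and without replicate 3 of 2D shGFP (-0.86, 0.052).

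**Figure D4:**
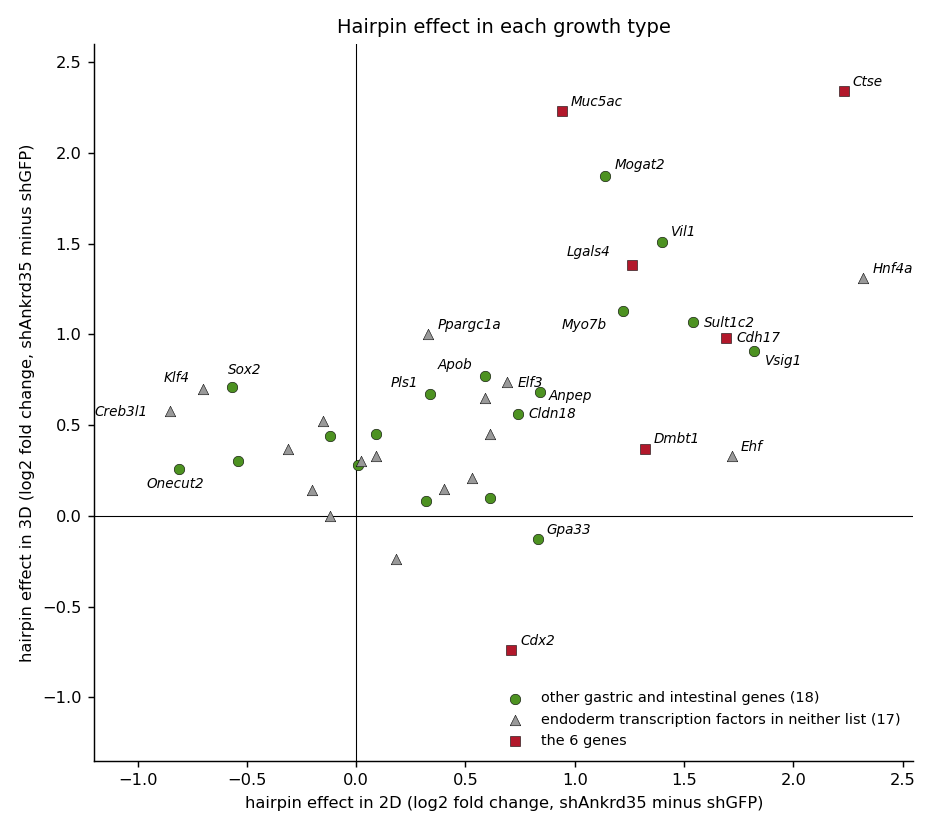
Log2 fold change with the label shAnkrd35 against shGFP in 2D (horizontal axis) and in 3D (vertical axis) for the 6 genes, the other gastric and intestinal genes (18) and endoderm transcription factors in neither list (17). Most genes lie in the upper right, with both effects above 0; Cdx2 lies lower right at 0.71 and -0.74, and Klf4, Sox2, Onecut2 and Creb3l1 lie upper left.

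Transcription factors of endoderm other than Cdx2 numbered 19 with a level in the table of 31 listed, and 2 of them, Sox2 and Onecut2, are among the gastric genes above. This list too was chosen with earlier results known, so its counts and p-values are a description. In 3D with shAnkrd35, 11 rose and 1 fell (median 0.37), against 15.0% and 14.6% of all genes. Hnf4a, a nuclear receptor of liver and gut epithelium, rose by 1.31 ± 0.12 (SE, limma adjusted p = 3.47e-07), the coactivator Ppargc1a by 1.0 ± 0.10, the epithelial factor Elf3 by 0.74 ± 0.11, Klf4, a factor of differentiating gut epithelium, by 0.70 ± 0.05, Sox9 by 0.65 ± 0.07 and the pioneer factor Foxa1 by 0.45 ± 0.06. Foxq1 fell by 0.24 on the log2 scale, a call that was lost when any of replicates 1, 2 and 3 of 3D shGFP or replicates 3 and 4 of 3D shAnkrd35 was left out.

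In 2D with shAnkrd35, 8 of the 19 rose and 5 fell (median 0.09), against 29.0% and 28.8% of all genes. Hnf4a rose by 2.32 ± 0.12, Ehf, an ETS factor of epithelia, by 1.72 ± 0.12, Foxa1 by 0.61 ± 0.06 and Sox9 by 0.59 ± 0.07 (SE). Creb3l1 (-0.85), Onecut2 (-0.81), Klf4 (-0.70), Sox2 (-0.57) and Klf5 (-0.31) fell. The call for Klf5 was lost without replicate 2 of 2D shAnkrd35 (adjusted p = 0.0511), without both 2D libraries numbered 1 (0.0861) and once a length and GC trend was removed (0.0534). Klf4, Klf5, Sox2 and Creb3l1 were thus lower in 2D and higher in 3D with shAnkrd35, the opposite of Cdx2, and for all 4 the difference between the effects was tested and called, with 1.39 ± 0.07, 0.68 ± 0.14, 1.28 ± 0.30 and 1.43 ± 0.22. The call for Sox2 in 3D was lost without replicate 3 of 3D shGFP (adjusted p = 0.0601) and without replicate 2 (0.0672) or 4 (0.051) of 3D shAnkrd35. Hnf4a and Ehf went the way of Cdx2 in that difference, with -1.01 ± 0.17 and -1.39 ± 0.18, while Hnf4a stayed higher with shAnkrd35 in both growth types.

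By library group, Hnf4a had 30.2 ± 0.566 CPM in 3D shAnkrd35 and 12.2 ± 0.981 CPM in 3D shGFP, and 9.52 ± 1.19 CPM in 2D shAnkrd35 and 1.85 ± 0.339 CPM in 2D shGFP (SD, n = 4), the order of Muc5ac, Cdh17, Lgals4 and Dmbt1. Klf4 was highest in the control monolayer, with 75.05 ± 3.14 CPM in 3D shAnkrd35, 46.3 ± 1.63 CPM in 3D shGFP, 89.9 ± 6.24 CPM in 2D shAnkrd35 and 145 ± 3.49 CPM in 2D shGFP. In 3D against 2D, 13 of the 19 factors rose and 2 fell with shAnkrd35, beside 34.4% and 36.0% of all genes, and 11 rose and 6 fell with shGFP, beside 35.2% and 32.1%. Ehf had the widest change, a rise of 3.59 ± 0.12 with shAnkrd35 and of 4.98 ± 0.12 with shGFP, and Hnf4a rose by 1.67 ± 0.12 and by 2.68 ± 0.12. Klf4 fell in both, by 0.26 and by 1.65 on the log2 scale. The homeodomain factors Cdx1 and Pdx1 had no level in the table.

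**Figure D5:**
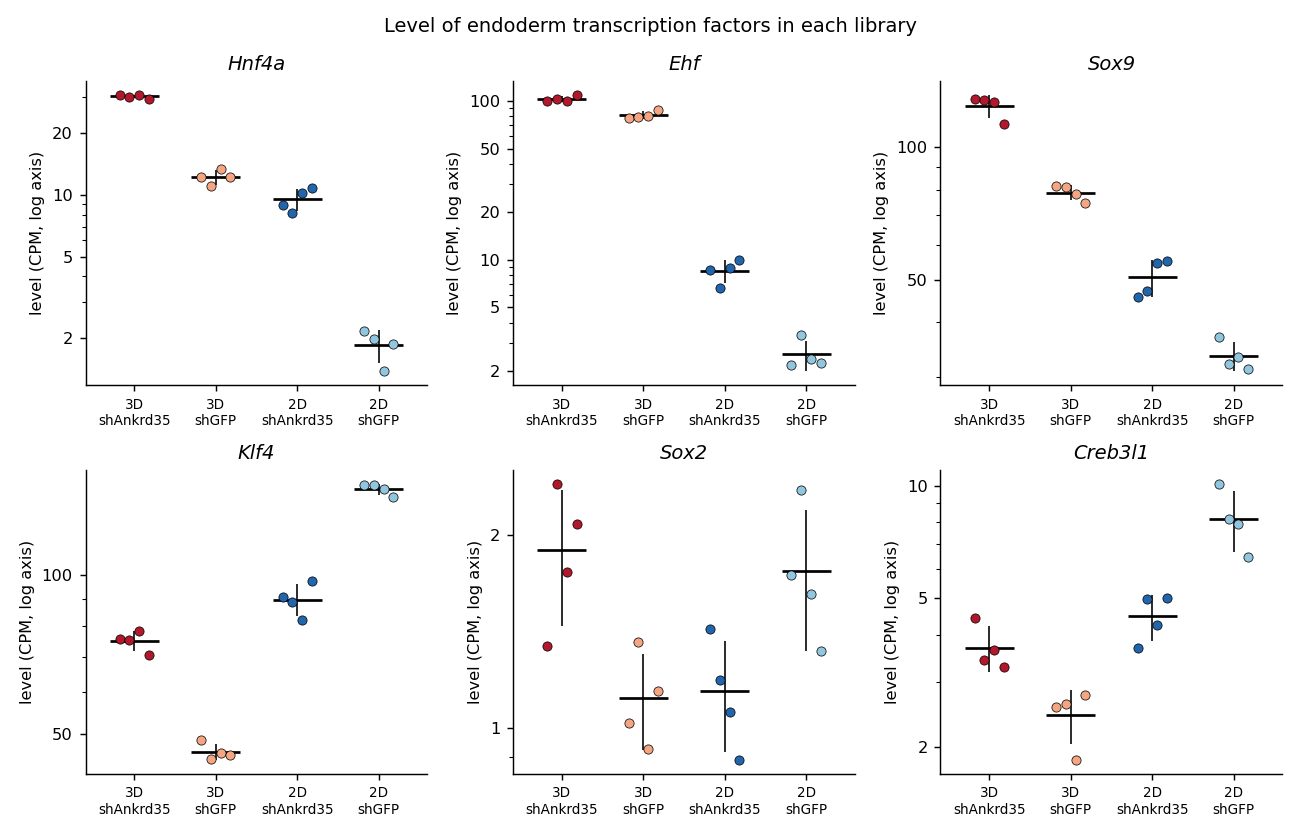
Level in CPM, on a log axis scaled to each gene, of 6 endoderm transcription factors in every library of 3D shAnkrd35, 3D shGFP, 2D shAnkrd35 and 2D shGFP, with group means (horizontal lines) and SD (vertical lines). Hnf4a, Ehf and Sox9 fall from left to right, Klf4 and Creb3l1 are highest in 2D shGFP at 145 and 8.16 CPM, and Sox2 is low throughout with overlapping groups; the 6 were picked after their values were seen.

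Mucins and enzymes of mucin glycosylation other than Muc5ac numbered 17 with a level of 37 listed. In 3D with shAnkrd35, 5 rose and 4 fell (median 0.02), where 15.0% and 14.6% of all genes did, and in 2D, 5 rose and 8 fell (median -0.17), where 29.0% and 28.8% did. Many of the 2D calls were lost once a length and GC trend was removed. Those of falling genes were C1galt1 (limma adjusted p = 0.591), Gcnt4 (0.246), Galnt1 (0.219), C1galt1c1 (0.107) and St3gal1 (0.0507). Muc1 (0.125), which rose, was lost as well, and in 3D so was the fall of C1galt1c1 (0.0551). Besides Muc5b, the rises in 3D included the N-acetylgalactosaminyltransferases Galnt3 (1.06 ± 0.25) and Galnt12 (0.48 ± 0.10), and Gcnt4 (-0.66 ± 0.12) and Qsox1 (-0.33 ± 0.05) fell. The fucosyltransferase Fut8 fell by 0.54 on the log2 scale in 2D, and its difference between growth types was 0.56 ± 0.08. By growth type, 14 rose and 2 fell in 3D against 2D with shAnkrd35 (median 1.0), where 34.4% and 36.0% of all genes did, and 12 rose and 3 fell with shGFP (median 0.69), where 35.2% and 32.1% did. Gcnt1, the enzyme that makes core 2 branches on mucin sugars, rose by 2.91 ± 0.12 with shAnkrd35 and by 3.07 ± 0.12 with shGFP, and it had 167.1 ± 11.1 CPM in 3D shAnkrd35 and 167.5 ± 8.65 CPM in 3D shGFP (SD, n = 4).

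Relatives by protein family are set here against the 15.0% of all genes called higher and 14.6% lower in 3D and the 29.0% and 28.8% in 2D. Of 7 galectins besides Lgals4, 3 rose and 3 fell with shAnkrd35 in 3D, and 3 rose and 3 fell in 2D. Lgals1 rose in both (0.39 and 0.78), with the call in 3D lost after quantile normalization (adjusted p = 0.0936), and Lgals8 fell in both (-0.26 and -0.37). Among the 3 aspartic proteases with a level besides Ctse, 1 rose and 1 fell in 3D, and 2 rose and 1 fell in 2D. Lysosomal Ctsd, the 1 higher in 3D, had 0.13 there, a call (adjusted p = 0.0469) that was lost with a replicate block (0.0749), with median-ratio size factors (0.0605), with a trend on length and GC content removed (0.0813) and without any 1 of most libraries. Ctsd had 0.43 in 2D, and Bace1 fell in both (-0.34 and -0.57). Of the 3 cadherins with a level besides Cdh17, 2 rose in 3D and 2 fell in 2D. Cdh1 had effects of 0.03 ± 0.04 in 3D and -0.20 ± 0.04 in 2D (SE). Of 9 scavenger receptor cysteine-rich genes besides Dmbt1, 4 fell and none rose in 3D, and 5 fell and 1 rose in 2D, led downward by Scara5 (-1.15 and -2.05). Lung epithelial genes had 9 of 23 listed with a level, and 3 rose and 1 fell in 3D and 4 rose and 1 fell in 2D, Cldn18 of the gastric list among them.

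Genes that lie within 100 kb of the 6 were added after the data had been seen, and 14 had a level. In 3D with shAnkrd35, 5 rose and 3 fell (median 0.05), against 15.0% and 14.6% of all genes, and in 2D, 9 rose and 1 fell (median 0.25), against 29.0% and 28.8%. The 7 neighbours of Lgals4 had hairpin effects between -0.13 (Nfkbib) and 0.26 (Sars2) in 3D and between 0.11 (Actn4) and 0.88 (Ech1) in 2D, all below the 1.38 and 1.26 of Lgals4. Near Ctse, Rab7b had -0.15 in 3D and 0.24 in 2D. Next to Muc5ac, Tollip had -0.26 in 3D and -0.05 in 2D, unlike Muc5b.

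Markers of other gut cell types were few in the table. Of 10 listed gastric pit and neck cell markers 3 had a level, Muc5ac, Vsig1 and Psca. Their sum was 97.2 to 108 CPM in 3D shAnkrd35, 35.2 to 38.3 CPM in 3D shGFP, 23.8 to 32.6 CPM in 2D shAnkrd35 and 23.9 to 29.6 CPM in 2D shGFP. Muc5ac, a chosen gene, averaged 70.8 CPM of it in 3D shAnkrd35 and 15.1 CPM in 3D shGFP. In 2D shAnkrd35 and 2D shGFP, Muc5ac had 1.57 and 0.809 CPM and Vsig1 had 1.41 and 0.358 CPM. Psca went the other way by growth type and was called lower in 3D with both labels. For goblet cells 1 of 10 had a level, Clca1, at 3.44 to 4.85 CPM in 3D shAnkrd35 and 2.29 to 3.51 CPM in 3D shGFP, and 1.15 to 1.59 CPM in 2D shAnkrd35 and 0.904 to 1.78 CPM in 2D shGFP. For enterocytes 1 of 10 had one, Anpep, at 2.32 to 7.43 CPM in 3D shAnkrd35 and 1.60 to 2.47 CPM in 3D shGFP, and 0.782 to 3.76 CPM in 2D shAnkrd35 and 0.557 to 1.62 CPM in 2D shGFP. Enteroendocrine cells had 1 of 9, Ghrl, at 1.05 to 1.92 CPM in 3D shAnkrd35 and 0.773 to 1.89 CPM in 3D shGFP, and 0.415 to 1.44 CPM in 2D shAnkrd35 and 1.13 to 1.52 CPM in 2D shGFP. Tuft cell markers had 2 of 6, with 7.34 to 9.35 CPM in 3D shAnkrd35, 4.13 to 5.06 CPM in 3D shGFP, 62.5 to 74.7 CPM in 2D shAnkrd35 and 88.5 to 99.1 CPM in 2D shGFP, most of it from Avil, while the defining Pou2f3 and Trpm5 had none.

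Among cells from outside the epithelium, 7 of 10 fibroblast markers had a level and summed to 16.2 to 51.4 CPM in 3D shAnkrd35, 34.8 to 39.4 CPM in 3D shGFP, 22.1 to 23.5 CPM in 2D shAnkrd35 and 39.0 to 44.4 CPM in 2D shGFP. Macrophage markers had 3 of 10, with 130 to 152 CPM in 3D shAnkrd35, 116 to 124 CPM in 3D shGFP, 79.5 to 87.9 CPM in 2D shAnkrd35 and 41.4 to 42.7 CPM in 2D shGFP, most of it from Cd14, and the defining Ptprc, Adgre1 and Csf1r had none. Endothelial markers had 3 of 10, with 132 to 149 CPM in 3D shAnkrd35, 134 to 146 CPM in 3D shGFP, 82.4 to 103 CPM in 2D shAnkrd35 and 69.4 to 78.7 CPM in 2D shGFP, and Pecam1 and Cdh5 had none. The macrophage sum took the order of the groups seen in Muc5ac, and its part in the result was not tested.

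Over the 16 libraries, which fall into 4 groups and so share most of their variance by group, the log2 levels of the 5 genes other than Cdx2 went together, with Pearson's r between 0.67 (Ctse and Dmbt1) and 0.98 (Muc5ac and Lgals4). Cdx2 had r between 0.11 and 0.36 with the other 5. Among all genes that averaged 5 CPM or more, the 5 most like Ctse were Hsph1 (r = 0.982), Clmn, Adck5, Clic6 and Rab3il1. Those nearest to Muc5ac included Slc27a1 (0.987), Rnase4, Lgals4 and Tfcp2l1, and those nearest to Lgals4 were Mlph (0.992), Tjp3, Ndrg2, Tgm2 and Kctd14. For Cdh17 the nearest were Ddc (0.988), Slco2a1, Maoa, Hsd17b11 and Ndrg2, and for Dmbt1 they were Dhrs3 (0.988), Meltf, Ehf, Mrc1 and Anxa4. Cdx2 had looser neighbours, led by Slc9a3r1 (0.940), Mxd3 (0.897), Psmc2, Padi4 and Gpx1. These are descriptions of likeness in level and carry no test.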

How the data were processed

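The table that the authors deposited holds log2 levels of 16 libraries, and 0 columns belonged to other samples. The submitters' processing notes name STAR 2.5.1b, Trimmomatic 0.38 and edgeR, and the build mm10. The counter, annotation, strand setting and filter are not given in the sources used. From the values, each level is a log2 CPM scaled by effective library size, after a prior that averages 2 reads was added, and 100% came out as whole reads within 0.01 reads once the prior was taken off. CPM and RPKM printed here are without the prior, so fold changes on the log2 scale understate those of low genes. All genes but Ankrd35 reached 1 CPM, prior included, in 8 or more libraries, so the table had been filtered before deposit. GENCODE M21 (mm10) gave coordinates and exonic lengths for 12218 symbols, and 103 did not match.

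limma 3.58.1 in R 4.3.3 (statmod 1.5.0), with a variance trend and robust fitting, fitted the means of the 4 groups to the 12320 genes with at least 1 CPM, prior included, in at least 4 libraries. Benjamini-Hochberg adjustment ran over all genes within each of 5 contrasts, and a call is an adjusted p under 0.05. The design allowed for counts, linear values or log2 values; the log2 form was used and no pseudocount was added. The 6 genes, the 9 gene lists and the 13 marker lists were chosen with earlier results of these data known. Other genes are named by smallest p, up to 6 a list and contrast, together with those against a list's majority; the 5 most alike were taken by Pearson's r. Further list genes, neighbours and those named for a changed call were named after their values were seen. A few genes that these rules name are not reported here, though the counts include them. The design also planned tests of the growth effects of Ctse and Cdx2; these use libraries on which the 6 genes were chosen, so the values are given as a description. Steps were tested on simulated data. Alternatives covered the samples fitted, filter, prior, normalization, replicate block, length and GC, and single libraries, and voom weights on the recovered reads were added after seeing the data.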

Additional observations from a re-analysis of the deposited data

Results flagged for a closer look

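Cdx2 had opposite hairpin effects in the 2 growth types in every library, with a difference of -1.44 on the log2 scale, 3D minus 2D; the gene was chosen on these contrasts, so the difference is a description and counts as not tested.

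The lists of gastric and intestinal genes, endoderm factors and mucin genes were chosen with earlier results of these libraries known. Among the genes named here from them, the difference between the hairpin effects passed limma's test for the following. It was above 0 for Creb3l1 (1.43, adjusted p = 0.000198), Klf4 (1.39, 3.38e-09), Sox2 (1.28, 0.00458), Onecut2 (1.07, 0.00393), Muc5b (0.80, 0.000213), Klf5 (0.68, 0.00196), Ppargc1a (0.67, 0.0019), Fut8 (0.56, 5.12e-05), B3gnt3 (0.35, 0.0017) and Gata6 (0.28, 0.00422). It was below 0 for Ehf (-1.39, 2.98e-05), Hnf4a (-1.01, 0.00031), Gpa33 (-0.96, 0.00814), Vsig1 (-0.92, 0.0278), Tspan8 (-0.51, 0.00948) and Foxq1 (-0.43, 0.00798).

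In some groups a single library lay far from the other 3. The transcript Gm23935 was highest at 2109 CPM, and the gene Lars2 at 1418 CPM, in replicate 1 of 2D shAnkrd35. Gcnt1 was lowest at 17.8 CPM in 1 library of 2D shAnkrd35. Krt18 was lowest at 1840 CPM in 1 of 3D shGFP, where the others had 1859 to 1862 CPM. Sox9 was lowest at 113 CPM in 1 library of 3D shAnkrd35, Sult1c2 was highest at 3.50 CPM in 1 of 3D shGFP, and Lgals4 was highest at 3.19 CPM in 1 of 2D shGFP. Chance alone marks about 1 in 20 groups in this way. The number of groups searched is not given here, so these libraries are not shown to be unusual.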

How the results depend on the processing

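Of 834 recomputed effects of the 6 genes, 827 counted as unchanged. For the growth effects of Ctse and Cdx2 that meant a kept call, and for all other effects a shift under the spread between replicates. Over 28 alternatives, the growth effect of Cdx2 was -0.61 to -0.29 with shAnkrd35 and 0.82 to 1.03 with shGFP. That of Ctse was 1.42 to 1.61 with shAnkrd35 and 1.17 to 1.59 with shGFP. The 1 change of sign was in the uncalled difference of Ctse, -0.03 without replicate 3 of 3D shGFP. Quantile normalization gave growth effects with shGFP of 3.82 for Muc5ac, 2.62 for Lgals4 and 4.55 for Dmbt1, and a prior of 5 reads gave 4.53 for Dmbt1. Removal of the length and GC trend gave 0.54 for Cdx2 in 2D and differences between hairpin effects of -1.26 for Cdx2 and 0.31 for Lgals4. A mean of at least 5 CPM left 10281 genes tested. Gastric and intestinal genes higher with the label shAnkrd35 were then 2 in 3D and 3 in 2D, beside 1580 and 3166 of all genes. For growth, 2 were higher with shAnkrd35 and 3 with shGFP, beside 3418 and 3575 of all genes. Those lower were 1 in 2D and 2 for growth with shGFP, beside 3181 and 3586 of all genes. A lower difference was called for 1, beside 2194 of all genes. Endoderm factors lower were 3 in 2D and 3 for growth with shGFP. How many listed genes that filter left is not given here. With only the groups compared, 14 gastric and intestinal genes were higher in 3D and 1 lower in 2D, beside 2477 and 2849 of 12320 genes. Quantile normalization gave 3 lower for growth with shAnkrd35 and 0 factors lower in 3D, beside 5181 and 1865 of 12320 genes. After the length and GC trend was removed, 5 gastric and intestinal genes had a higher difference, beside 1494 of 12217 genes. In that setting 1 factor was lower for growth with shAnkrd35, beside 4670 of all genes. Leaving out 1 library gave 1 to 2 gastric and intestinal genes lower in 2D, beside 3082 to 3922 of all genes. It gave 0 to 1 factors lower in 3D, beside 1473 to 2107 of all genes. The causes were not tested. Replicate numbers did not pair the samples: same-numbered libraries had correlations of -0.624 to 0.375, and 11 of 48 matched their own number best. With a replicate block the effects of Cdx2 were -0.74 in 3D and 0.71 in 2D. Gastric and intestinal genes higher with that block were 9 in 3D and 9 in 2D, as without it, beside 1748 and 3499 of all genes. A count-model test of the recovered reads was not run. With voom weights on them, chosen after seeing the data, all of these results counted as unchanged by the same rules. Depth limits Dmbt1 and Muc5ac in 2D, with 2 to 37 reads a library.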
